A study of Mus musculus with 12 samples.

Results

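The genes of the TGF-beta pathway examined here were 3 ligands (*Tgfb1*, *Tgfb2* and *Tgfb3*), a protein that holds the latent ligand in the matrix (*Ltbp1*), 3 receptors (*Tgfbr1*, *Tgfbr2* and *Tgfbr3*) and 3 Smads (*Smad2*, *Smad3* and *Smad7*). They were chosen by symbol: every spot that is not a control and whose gene name in the scanner files is 1 of these 10 symbols, of 27962 names in all, was taken, which gave 16 probes on 25 spots among 41174 probes. A probe entered the test when the scanner software had marked it as well above background on each of the 3 arrays of some group. This held for 14 of the 16 probes, with at least 1 for each of the 10 genes, and the tests ran over the 22750 probes of the whole array that met it.

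TGF-beta ligands are secreted in a latent complex, bound through their propeptide to latent TGF-beta binding proteins, and act after release. The active ligand binds the type II receptor (*Tgfbr2*), which recruits and phosphorylates the type I receptor (*Tgfbr1*); that receptor phosphorylates Smad2 and Smad3, which enter the nucleus with Smad4. Betaglycan (*Tgfbr3*) presents ligand to the type II receptor and matters most for TGF-beta2, whereas Smad7 inhibits the type I receptor. In mammary epithelium the pathway is known for holding back growth of the ducts and for driving the change of epithelial cells to a mesenchymal form.

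C57MG, a mouse mammary epithelial cell line, received recombinant human Rspo2 (100 ng/ml), recombinant mouse Wnt3a (100 ng/ml), the same amounts of both, or bovine serum albumin (BSA), the carrier of the proteins, and RNA was taken at 24 h. Wnt3a is a secreted activator of the β-catenin pathway and Rspo2 is an R-spondin, a secreted protein that strengthens Wnt signaling. Every group had 3 samples, described as biological replicates, each hybridized in a single color to 1 array, so that p-values measure the spread between cultures of 1 cell line. The 12 arrays were spread over 3 slides by group: all BSA arrays and 1 Rspo2 array (replicate 1) shared slide 1, the other Rspo2 arrays and Wnt3a replicates 1 and 2 shared slide 2, and Wnt3a replicate 3 and all arrays with both proteins shared slide 3. No array with Wnt3a, alone or with Rspo2, was on the BSA slide, so for those comparisons slide and treatment cannot be fully told apart, and within-slide values are given for the neighboring groups.

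The share of probes well above background was 51.3% to 64.1% by array, highest on BSA replicate 1, and the 75th percentile of signal was 774 to 1146 intensity units. Levels below are log2 signal less that of the array's own 75th percentile, so 0 is that percentile. Levels of different probes were set against each other only in the marker sums and to tell bright probes from dim ones. The epithelial label of the line was checked on marker genes. Of 7 epithelial markers on the array, *Krt8* and *Krt14* were above background on all 12 arrays and *Cdh1*, the gene of E-cadherin, on 0, whereas 8 of 8 mesenchymal and myofibroblast markers were above background on all 12 arrays. The summed linear level of the epithelial markers was 10.1 to 10.7 times the 75th percentile with BSA and 22.5 to 25.8 times with both proteins, nearly all of it *Krt14*, a keratin of basal cells, at a mean log2 level of 3.35 and 4.59. The luminal keratin *Krt8* (-3.51 and -4.66) was lower with both proteins. The keratins *Krt7* (-4.96 and -4.22) and *Krt5* (-4.21 and -3.99), above background on 9 and 10 of 12 arrays, were higher. *Krt18* and *Krt19* were above background on only 3 and 2 of 12 arrays, so no direction is given for them. The sum of the mesenchymal markers was 403 to 408 with BSA and 476 to 500 with both. In it *Acta2* (6.96 and 7.75), *Tagln* (-1.69 and -0.73), *Vim* (6.95 and 7.12) and *Cdh2* (1.26 and 1.32) were higher with both proteins. The other markers, *Pdgfrb* (5.07 and 4.47), *Fn1* (5.21 and 4.89), *Col1a2* (3.88 and 3.69) and *Col1a1* (6.10 and 6.03), were lower. In limma *Acta2* and *Tagln* passed (adjusted p = 7.26e-05 and 6.24e-05), whereas *Fn1* and *Col1a1* did not (0.217 and 0.62). For the other markers named here, higher and lower rest on group means alone. The sum of 3 endothelial markers, nearly all of it *Cdh5*, was 2.43 to 2.59 with BSA and 1.63 to 1.74 with both, and the sums of the leukocyte and adipocyte markers were below 1 on every array. The epithelial, mesenchymal and endothelial sums differed between BSA and both proteins, as results below did. Their part in those results was not tested. In RNA of a whole culture, fewer cells of a kind and less RNA per cell cannot be told apart.

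Upstream sequence is shown for the genes whose signal rose at least 2-fold with both proteins, *Tgfb2* and *Tgfbr2*, and for *Tgfbr1*, whose signal did not pass the test, since β-catenin acts on DNA through TCF/LEF factors. RefSeq promoter windows on GRCm38.p6 were at hand for 6 of the 10 genes, with 8 transcript starts in all, and the 250 bases before each start were searched on both strands for 4 forms of the TCF/LEF core: the word CTTTGAA, the word CTTTGAT, the word CTTTGTA and the word CTTTGTT. Matches are in capitals, each sequence runs 5′ to 3′ along its gene, and the last base lies just before the start.
*Tgfb2*, chr1:186705990-186706239, minus strand: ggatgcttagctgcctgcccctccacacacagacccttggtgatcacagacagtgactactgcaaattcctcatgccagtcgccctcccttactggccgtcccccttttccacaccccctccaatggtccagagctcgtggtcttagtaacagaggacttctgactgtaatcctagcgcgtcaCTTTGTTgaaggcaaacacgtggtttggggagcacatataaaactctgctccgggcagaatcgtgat
*Tgfbr2*, chr9:116175364-116175613, minus strand: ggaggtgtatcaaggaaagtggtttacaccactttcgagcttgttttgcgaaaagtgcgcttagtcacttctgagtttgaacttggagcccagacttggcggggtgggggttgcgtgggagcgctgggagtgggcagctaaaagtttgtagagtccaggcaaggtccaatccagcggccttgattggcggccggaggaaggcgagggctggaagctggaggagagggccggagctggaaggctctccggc
*Tgfbr1*, chr4:47352972-47353221, plus strand: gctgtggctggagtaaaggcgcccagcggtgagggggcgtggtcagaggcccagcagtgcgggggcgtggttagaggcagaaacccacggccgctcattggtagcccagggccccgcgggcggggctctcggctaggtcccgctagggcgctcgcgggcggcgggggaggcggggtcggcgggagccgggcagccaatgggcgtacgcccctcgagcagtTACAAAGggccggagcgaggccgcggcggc
The *Tgfb2* window held CTTTGTT with its first base 67 bases before the start. The first of the 2 *Tgfbr1* windows held TACAAAG, the reverse complement of CTTTGTA, beginning 30 bases before the start, and the *Tgfbr2* window held none of the 4 forms. Over all 32851 windows of the same length 14.8% held at least 1 match, beside 2 of the 8 windows of these genes. A match describes these letters and is not a site.

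A probe was taken as called where limma's adjusted p was below 0.05 and the change at least 2-fold. With both proteins, 4 of the 14 tested probes were called, against 5.08% of all tested probes: those of *Tgfb2* and *Tgfbr2* (2 probes) were higher, where 1.28% of all were, and that of *Tgfbr3* was lower, where 3.79% were. These 4 probes stand for 3 genes. With Wnt3a alone 1 probe was called, that of *Tgfbr3*, which was lower (2.11% of all probes were called lower and 2.52% in all). With Rspo2 alone 0 were called, against 0.721% of all. Both proteins against Wnt3a called the *Tgfb2* probe (1 of 14, against 0.747% of all), and the interaction called that of *Tgfb2* and 1 of 3 *Smad3* probes (2 of 14, against 1.93% of all).

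By the adjusted p alone, 6 of 14 probes passed with both proteins (4 higher and 2 lower), where 39.2% of all probes did (21.9% higher and 17.3% lower), a share near the background. With Wnt3a 6 of 14 passed (2 higher and 4 lower), where 31.5% did (18.3% higher and 13.2% lower). With Rspo2 1 passed, where 16.8% did (10.9% higher and 5.93% lower), with both against Wnt3a 2 did, where 4.27% did, and in the interaction 2, where 8.9% did. The arrays of the groups did not overlap for 7 of 14 probes with both against BSA (5 higher and 2 lower), where 54% of all probes did not (30.9% higher and 23.1% lower), for 7 with Wnt3a (45.5% of all), for 3 with Rspo2 (43.5%) and for 7 with both against Wnt3a (21.4%). The median log2 change of the 14 probes was -0.11 with Rspo2, -0.07 with Wnt3a and -0.04 with both, beside 0.01, -0.00 and 0.04 for all tested probes. The 3 comparisons with BSA share its arrays, and their values are therefore given side by side and not counted as separate support.

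**Figure D1:**
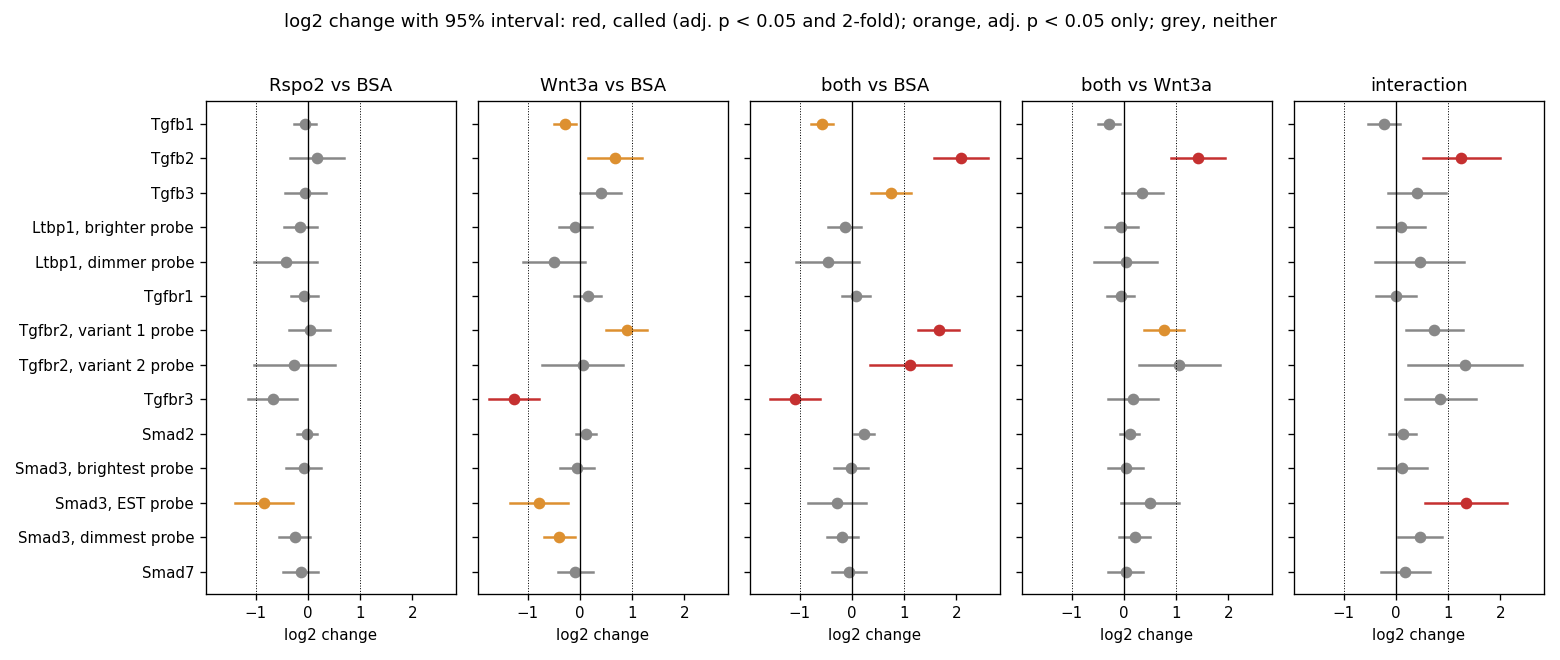
log2 change of each tested probe in the 5 comparisons, with 95% intervals; dotted lines mark 2-fold, red points were called, orange points passed the adjusted p alone and grey points neither. With both proteins *Tgfb2* (2.10), the *Tgfbr2* probes (1.66 and 1.12) and *Tgfbr3* (-1.09) are called, and no probe is called with Rspo2 alone.

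Among the ligands, *Tgfb2* rose with both proteins, *Tgfb3* rose by less and *Tgfb1* fell. For *Tgfb2*, whose product is a ligand that depends on betaglycan for binding, the level was -3.10, -3.47 and -3.57 on the 3 BSA arrays. It was -3.13, -3.18 and -3.32 with Rspo2, and -2.41, -2.60 and -3.10 with Wnt3a. With both proteins it was -1.17, -1.80 and -0.88. All 3 arrays with both proteins were above the other 9, the Rspo2 arrays lay within the BSA range, and the lowest Wnt3a array overlapped BSA replicate 1. The change with both against BSA was 2.10 ± 0.23 (log2, standard error), or 4.27-fold, with an adjusted p of 8.79e-05 in limma. With Wnt3a it was 0.68 ± 0.23 (adjusted p = 0.0485, lost in 18 of 28 alternatives) and with Rspo2 0.17 ± 0.23 (adjusted p = 0.646). Adding Rspo2 to Wnt3a raised the signal by 1.42 ± 0.23 (2.67-fold, adjusted p = 0.00622). The interaction, or what the combination gave beyond the sum of the log2 changes with the single treatments, was 1.25 ± 0.33 (adjusted p = 0.0433, lost in 17 of 25 alternatives). Within slide 3 the arrays with both proteins exceeded the 1 Wnt3a array, the lowest of the Wnt3a arrays, by 1.82. A model with a slide term, which rests on the same within-slide differences, put the change with both against BSA at 2.81 (adjusted p = 0.0289). With another background correction (normexp) it was 1.38 with an adjusted p of 0.129, so the call was lost, and the interaction lost its call in 9 of the 12 fits that each left out 1 array, where its adjusted p ran up to 0.0975.

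*Tgfb3*, a ligand that acts in palate and mammary development, was read by a bright probe. Its level was 2.53, 2.40 and 2.47 with BSA, 2.55, 2.74 and 1.98 with Rspo2, 2.98, 2.97 and 2.64 with Wnt3a, and 3.02, 3.30 and 3.34 with both proteins. The 3 arrays with both proteins were again above the other 9, and the Wnt3a arrays did not overlap BSA. The change with both was 0.75 ± 0.18 (1.68-fold, adjusted p = 0.0071), and with Wnt3a it was 0.39 ± 0.18 (adjusted p = 0.113). The interaction, 0.40 ± 0.25, did not pass (adjusted p = 0.31), and with slide as a term the adjusted p of the change with both was 0.168.

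*Tgfb1*, the most studied of the ligands, was read by a probe printed on 10 spots. Its level was 1.66, 1.77 and 1.45 with BSA, 1.52, 1.60 and 1.59 with Rspo2, 1.23, 1.45 and 1.34 with Wnt3a, and 1.15, 0.97 and 1.03 with both proteins. The arrays with both proteins were below the other 9. The signal fell by 0.57 ± 0.10 with both (1.49-fold lower, adjusted p = 0.00111, but 0.233 with slide as a term and 0.0923 with normexp) and by 0.29 ± 0.10 with Wnt3a (adjusted p = 0.0416), the latter turning to 0.038 when arrays were centred on their median, where the median of all tested probes moved to 0.33. Neither change reached 2-fold.

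**Figure D2:**
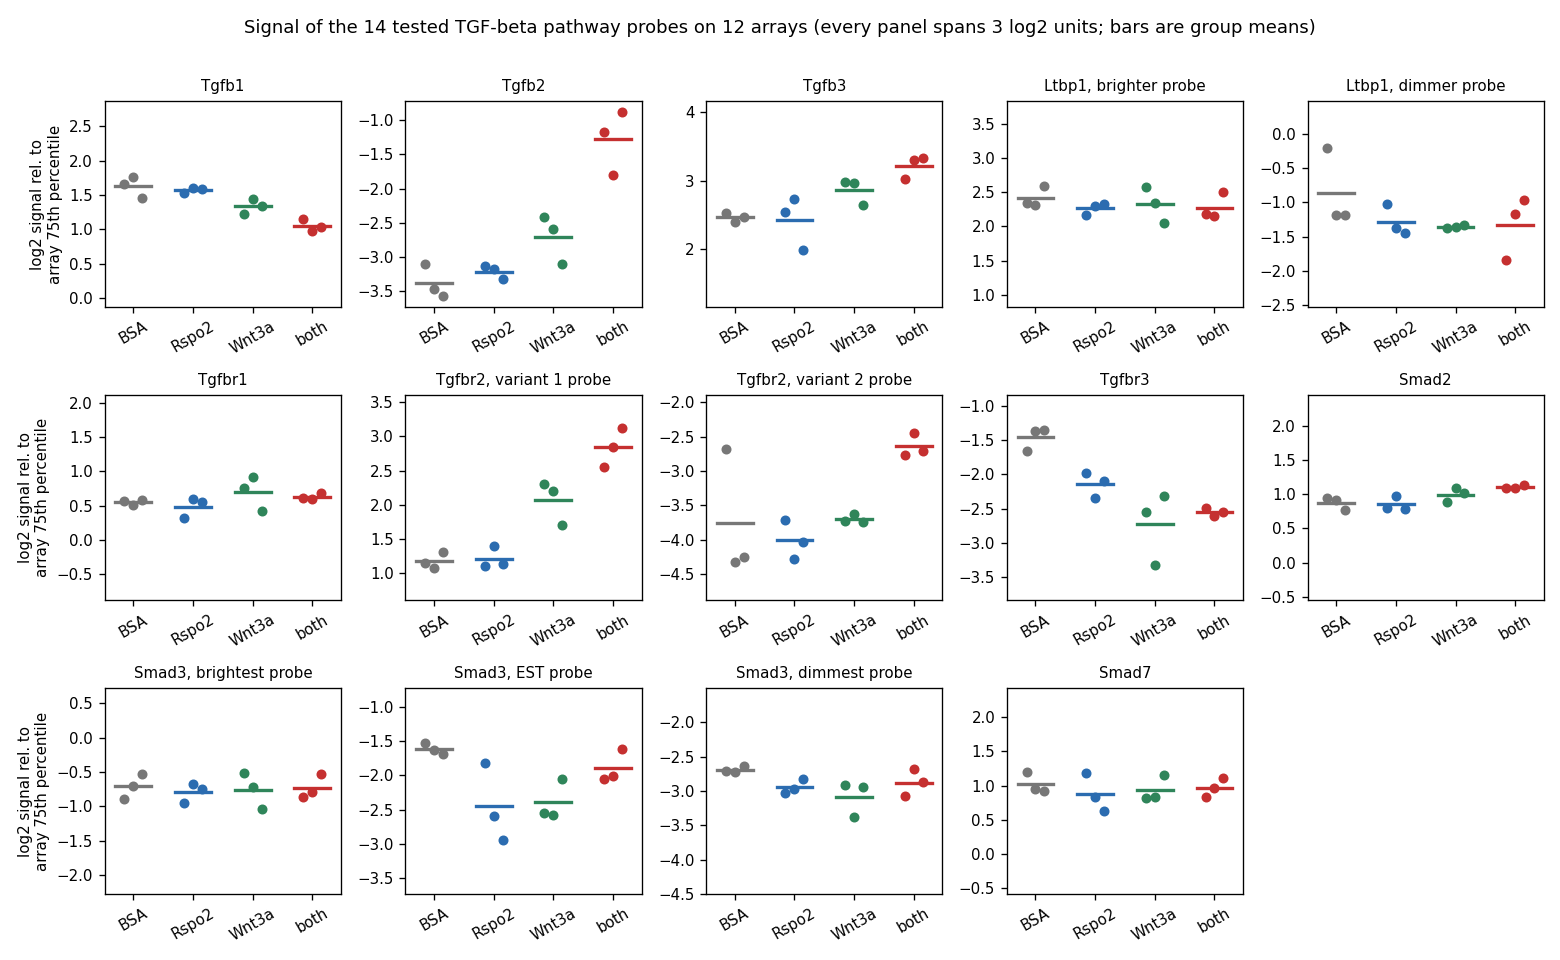
Signal of the 14 tested probes on each array (vertical axes, log2 with the 75th percentile as 0), by group (points are arrays, bars are means of 3); every panel has the same vertical span. The 3 arrays with both proteins lie above the other 9 for *Tgfb2*, *Tgfb3*, the variant 1 probe of *Tgfbr2* and, narrowly, *Smad2*. They lie below the other 9 for *Tgfb1*. The share of all tested probes that separate in this way was not counted. BSA replicate 1 stands at -2.68 for the variant 2 probe of *Tgfbr2*, apart from the other BSA arrays.

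*Ltbp1*, which binds the latent complex and tethers it to the matrix, showed no change that passed the test in any comparison. Its brighter probe ranged from 2.06 to 2.60 over the 12 arrays, and the change with both proteins was -0.14 ± 0.14 (adjusted p = 0.484; 95% interval -0.46 to 0.18). Its dimmer probe stood at -0.21 on BSA replicate 1 and at -1.18 on each of the other BSA arrays, and gave -0.47 ± 0.27 (adjusted p = 0.202).

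Among the receptors, *Tgfbr2* rose, *Tgfbr3* fell and *Tgfbr1* did not pass the test. The array had 3 probes for *Tgfbr2*, the type II receptor that binds the ligand. The array design assigns 1 to transcript variant 1 (chr9:115760364-115760423), 1 to variant 2 (chr9:115782405-115782464) and 1 to a cDNA clone (chr9:115803054-115803113), with positions on a mouse build that the files do not name. The variant 1 probe stood at 1.15, 1.08 and 1.31 with BSA and at 1.11, 1.39 and 1.13 with Rspo2. It stood at 2.31, 2.21 and 1.71 with Wnt3a and at 2.55, 2.85 and 3.13 with both. The 4 groups fell into 3 steps, with BSA and Rspo2 overlapping, Wnt3a above both and the combination above Wnt3a. The change was 1.66 ± 0.18 with both (3.17-fold, adjusted p = 6.24e-05), 0.89 ± 0.18 with Wnt3a (1.86-fold, adjusted p = 0.00436) and 0.03 ± 0.18 with Rspo2 (adjusted p = 0.919). Rspo2 added to Wnt3a raised it by 0.77 ± 0.18 (adjusted p = 0.0345, lost in 15 of 28 alternatives), whereas the interaction of 0.74 ± 0.25 did not pass (adjusted p = 0.0851). Wnt3a exceeded Rspo2 by 0.99 within slide 2. Within slide 3 the combination exceeded the 1 Wnt3a array, the lowest of the Wnt3a arrays, by 1.13. The call with both proteins held under all 28 alternatives tried.

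The variant 2 probe of *Tgfbr2* was dim, with 45.2 to 176 intensity units, yet above background on all 12 arrays. It stood at -2.68, -4.33 and -4.25 with BSA, at -3.72, -4.28 and -4.04 with Rspo2, at -3.72, -3.63 and -3.74 with Wnt3a, and at -2.76, -2.45 and -2.71 with both. The arrays with both proteins were above all Rspo2 and Wnt3a arrays, but BSA replicate 1 was as high as they were. The change with both was 1.12 ± 0.35 (2.17-fold, adjusted p = 0.0277), and without BSA replicate 1 it was 1.65 (adjusted p = 7.94e-05). With Wnt3a alone it was 0.06 ± 0.35 (adjusted p = 0.92), where the variant 1 probe had passed; a difference between the probes was not tested. The probe of the cDNA clone was well above background on 0 of 12 arrays and gives no level. The call of the variant 2 probe was lost without BSA replicate 2 (0.83, adjusted p = 0.106), without BSA replicate 3 (0.87, adjusted p = 0.105) and without any 1 of the arrays with both proteins, as it was with normexp (0.44, adjusted p = 0.716) and with slide as a term (1.62, adjusted p = 0.432).

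*Tgfbr3* encodes betaglycan, the co-receptor without kinase activity. Its level was -1.66, -1.36 and -1.36 with BSA, -1.98, -2.34 and -2.10 with Rspo2, -2.54, -3.32 and -2.31 with Wnt3a, and -2.50, -2.61 and -2.55 with both. All 9 treated arrays were below the 3 BSA arrays. The signal fell by 1.26 ± 0.22 with Wnt3a (2.40-fold lower, adjusted p = 0.00232) and by 1.09 ± 0.22 with both (2.13-fold lower, adjusted p = 0.0027). With Rspo2 the change was -0.68 ± 0.22 (adjusted p = 0.0534). Both proteins against Wnt3a gave 0.17 ± 0.22 (adjusted p = 0.727; 95% interval -0.30 to 0.65), a difference that did not pass the test. Rspo2 replicate 1 was 0.52 below BSA within slide 1, and the adjusted p of the change with both was 0.134 with slide as a term and 0.0768 with normexp. Wnt3a replicate 2 was the lowest array, and without it the change with Wnt3a was -0.97 (adjusted p = 0.00291), just under 2-fold.

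*Tgfbr1*, the type I receptor kinase, stood between 0.32 and 0.92 on all 12 arrays by its measured probe, and the change with both was 0.08 ± 0.12 (adjusted p = 0.644; 95% interval -0.19 to 0.34). Its other probe was above background on 2 of 12 arrays, 1 with BSA and 1 with both proteins, and was not tested.

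No Smad probe changed 2-fold against BSA. *Smad2*, which carries the signal of the type I receptor, stood at 0.77 to 0.94 with BSA and at 1.09 to 1.13 with both proteins, without overlap, and the change of 0.23 ± 0.08 had an adjusted p of 0.0501. The lowest array with both proteins (1.091) was also just above the highest of the other groups, Wnt3a replicate 2 (1.086). *Smad7*, the inhibitor and a known target of the pathway, ranged from 0.63 to 1.20 over all arrays, with a change of -0.05 ± 0.15 with both (adjusted p = 0.803; 95% interval -0.39 to 0.28). The brightest of the 3 *Smad3* probes ranged from -1.04 to -0.52 and changed by -0.02 ± 0.15 with both (adjusted p = 0.932).

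The other *Smad3* probes passed the test in some comparisons, and differences between the probes were not tested. The probe designed on an expressed sequence tag stood at -1.53, -1.63 and -1.68 with BSA, at -1.82, -2.59 and -2.93 with Rspo2, at -2.55, -2.58 and -2.05 with Wnt3a, and at -2.05, -2.01 and -1.62 with both. The 4 lowest arrays were the 4 of slide 2. It fell by 0.84 ± 0.25 with Rspo2 (adjusted p = 0.045, lost in 20 of 28 alternatives) and by 0.78 ± 0.25 with Wnt3a (adjusted p = 0.0356, lost in 15), changed by -0.28 ± 0.25 with both (adjusted p = 0.405), and had an interaction of 1.34 ± 0.35 (adjusted p = 0.0435, lost in 16 of 25 alternatives). Within slides the differences were -0.21 for Rspo2 less BSA, 0.20 for Wnt3a less Rspo2 and 0.16 for both less Wnt3a, and with slide as a term the interaction was 0.37 (adjusted p = 0.464). The dimmest probe fell by 0.39 ± 0.13 with Wnt3a (adjusted p = 0.0454, lost in 19 of 28 alternatives, where the change shrank to as little as -0.066), and its interaction of 0.46 did not pass (adjusted p = 0.138), nor did that of the brightest probe, 0.12 (adjusted p = 0.742).

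**Figure D3:**
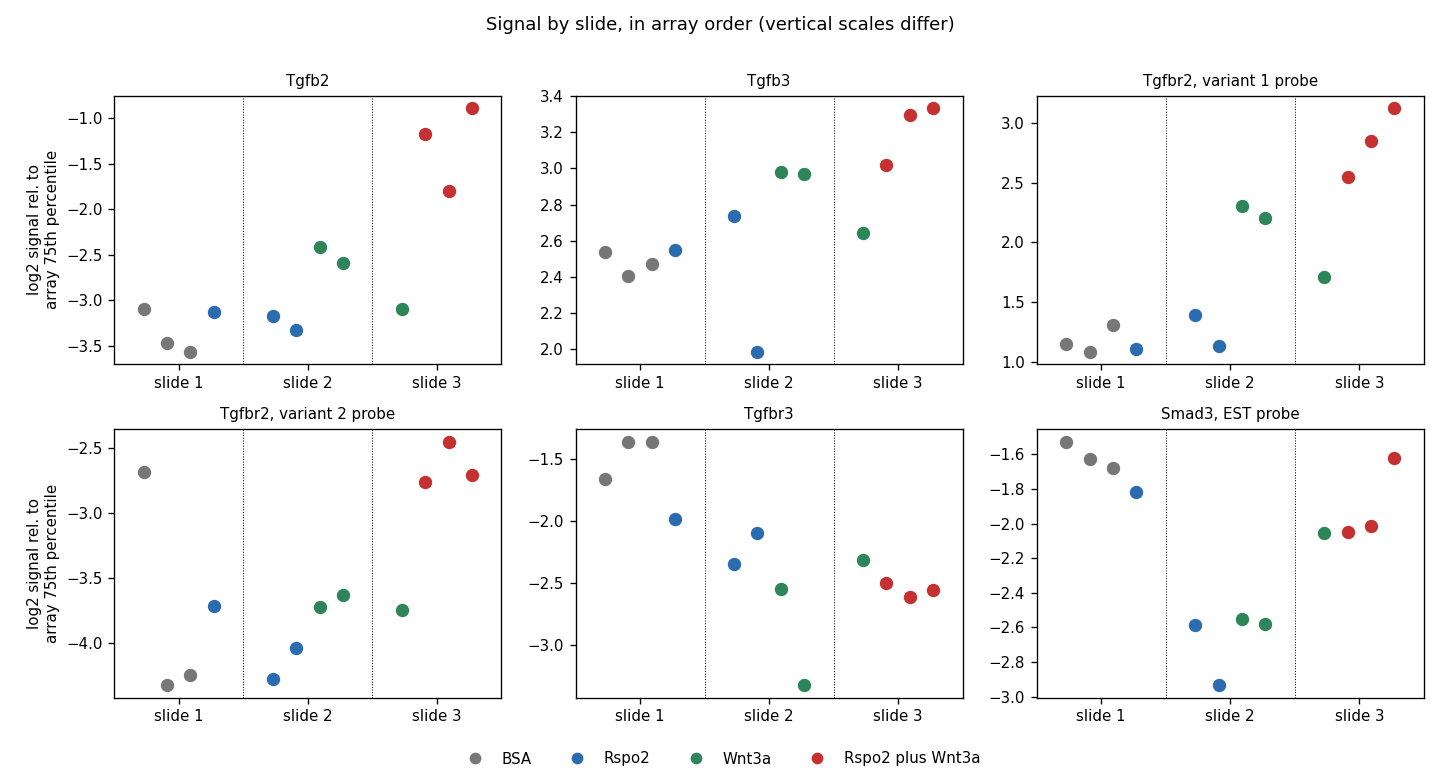
Signal (log2 with the 75th percentile as 0, scales differ between panels) of 6 probes on the 12 arrays in the order of slides and positions, colored by group. *Tgfb2* and the variant 1 probe of *Tgfbr2* separate the arrays with both proteins from the Wnt3a array of the same slide by 1.82 and 1.13. The expressed sequence tag probe of *Smad3* is lowest on the 4 arrays of slide 2. That slide held only arrays with Rspo2 alone or Wnt3a alone, so slide and treatment cannot be told apart there.

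The other genes of the pathway were taken from lists by function, with each gene read by its brightest probe. Their counts are to be read against all tested probes, of which 21.9% were higher and 17.3% lower with both proteins at an adjusted p below 0.05. Among genes of the latent complex and its activation, 9 of 13 were tested, and with both proteins 1 rose and 7 fell at an adjusted p below 0.05, with a median change of -0.42. *Ltbp2*, a latent TGF-beta binding protein that does not itself bind the ligand, fell from a mean of 4.04 with BSA to 2.29 with both (-1.75 ± 0.15, adjusted p = 1.55e-05), and it was also called with Rspo2 alone (-1.04 ± 0.15, adjusted p = 0.006) and with Wnt3a alone (-1.22 ± 0.15, adjusted p = 6.06e-04). *Ltbp3*, which does bind the latent ligand, fell from a mean of 2.88 to 1.56 (-1.32 ± 0.12, adjusted p = 2.31e-05). *Thbs1*, whose product thrombospondin-1 can activate latent ligand, rose by 0.63 ± 0.20 (adjusted p = 0.0278), and *Bmp1*, a protease that cleaves matrix proteins, fell by 0.56 ± 0.13 (adjusted p = 0.00592). So *Ltbp2* and *Ltbp3* fell. *Ltbp4* fell by less (-0.35 ± 0.11, adjusted p = 0.0261) and passed in 17 of 28 alternatives. *Ltbp1* did not pass, though its dimmer probe changed by -0.47, and its difference from the other genes was not tested. *Ltbp2* and *Ltbp3* were each read by 1 of 2 probes. Under median centring, where all tested probes shifted by 0.26, 2 of the 9 were higher and 2 lower, and the 2 lower ones were called. With slide as a term 0 of the 9 passed, with *Ltbp2* at -1.52 (adjusted p = 0.0676) and *Ltbp3* at -1.19 (adjusted p = 0.0806).

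Of the accessory receptors and ligand-binding proteins 7 of 10 were tested, and with both proteins 0 rose and 3 fell, none by 2-fold: *Dcn*, the matrix proteoglycan decorin that binds TGF-beta (-0.90 ± 0.20, adjusted p = 0.00497), *Vasn*, a membrane protein that binds TGF-beta (-0.53 ± 0.13, adjusted p = 0.00896), and *Tgfbrap1*, a protein that associates with the receptors (-0.47 ± 0.16, adjusted p = 0.0354). *Dcn* was dim, with a mean level of -4.09 with BSA and -4.99 with both. It was above background on 3 of 3 arrays in each of these groups and on 2 of 3 with Rspo2. The median change of the 7 genes was -0.04, and 3 of 7 is near the 39.2% of all tested probes that passed. With slide as a term 0 of the 7 passed, with *Tgfbrap1* at -0.095 (adjusted p = 0.935). Of the Smad partners and inhibitors 13 of 16 were tested, of which 3 rose, 3 fell and 7 did not pass, with 0 called and a median change of 0.02; this too is near the share of all probes. With slide as a term 0 of the 13 passed. The largest were *Smad6*, an inhibitory Smad of the BMP branch (-0.66 ± 0.10, adjusted p = 4.95e-04), *Smurf1*, a ubiquitin ligase of Smads and receptors (-0.47 ± 0.14, adjusted p = 0.0253, but -0.0078 with slide as a term), *Nedd4l*, a ligase that acts on Smad2 and Smad3 (-0.38 ± 0.09, adjusted p = 0.00712), and *Usp15*, a deubiquitinase of receptor-activated Smads (0.36 ± 0.07, adjusted p = 0.00247). *Smad6* was also lower with both than with Wnt3a (-0.54 ± 0.10, adjusted p = 0.00951).

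Of 21 genes commonly used as readouts of TGF-beta signaling 20 were tested, and 11 rose, 4 fell and 5 did not pass with both proteins. Called were 2 of the 20, where 5.08% of all tested probes were called and 1.28% were called higher. These were *Bhlhe40*, a transcriptional repressor (1.61 ± 0.10, 3.05-fold, adjusted p = 1.43e-06), and *Ccn2*, the matrix protein connective tissue growth factor (1.34 ± 0.09, 2.53-fold, adjusted p = 3.51e-06). *Tagln*, an actin-binding protein of smooth muscle, rose by 0.95 ± 0.10 (adjusted p = 6.24e-05) and *Cdkn1a*, the cell cycle inhibitor p21, by 0.93 ± 0.12 (adjusted p = 2.89e-04). With Wnt3a 10 of the 20 rose and 1 fell, where 18.3% of all probes were higher and 13.2% lower. With Rspo2 alone 3 rose and 1 fell, which is near the 10.9% and 5.93% of all probes. With slide as a term 3 passed with both proteins, 1 with Wnt3a (*Bhlhe40*) and 0 with Rspo2. The median change with both was 0.36, beside 0.04 over all tested probes. Many of these genes also answer to other signals, and 4 of them are among the mesenchymal markers above, so the count is a description of the list. *Bhlhe40* and *Ccn2* held their call under all 28 alternatives.

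In the activin branch, whose ligands and receptors use the same Smads, 10 of 13 genes were tested, and with both proteins 4 rose, 2 fell and 4 did not pass, with a median change of 0.13. The 4 that rose include *Fst*, which entered the test only through the group where it was high. The count and the median are therefore a description and no support. *Inhba*, the activin A subunit, had mean levels of 2.01 with BSA, 2.49 with Rspo2, 3.01 with Wnt3a and 3.91 with the combination, and the arrays of the 4 groups did not overlap. The change with both was 1.89 ± 0.12 (3.72-fold, adjusted p = 1.37e-06), and it held its call under all 28 alternatives. *Gdf15*, a distant relative of the TGF-beta ligands, rose by 1.34 ± 0.16 (2.53-fold, adjusted p = 1.28e-04; with slide as a term 0.75, adjusted p = 0.296) and *Inhbb*, the activin B subunit, by 0.98 ± 0.14 (1.97-fold, adjusted p = 4.85e-04; 0.114 with slide as a term). *Fst*, the gene of follistatin, which binds and blocks activins, was well above background on 0 of 3 BSA arrays and 0 of 3 Wnt3a arrays but on 3 of 3 arrays with both proteins, so it entered the test only through that group. Its signal there exceeded that with BSA at least 1.59-fold and that with Wnt3a at least 1.97-fold, as bounds against the lowest signals well above background. The adjusted p-values of the fit, 0.00424 and 0.00832, belong to fitted changes from signals not well above background and not to these bounds, and the former was 0.753 with slide as a term. With slide as a term 1 of the 10 genes, *Inhba*, passed with both proteins.

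**Figure D4:**
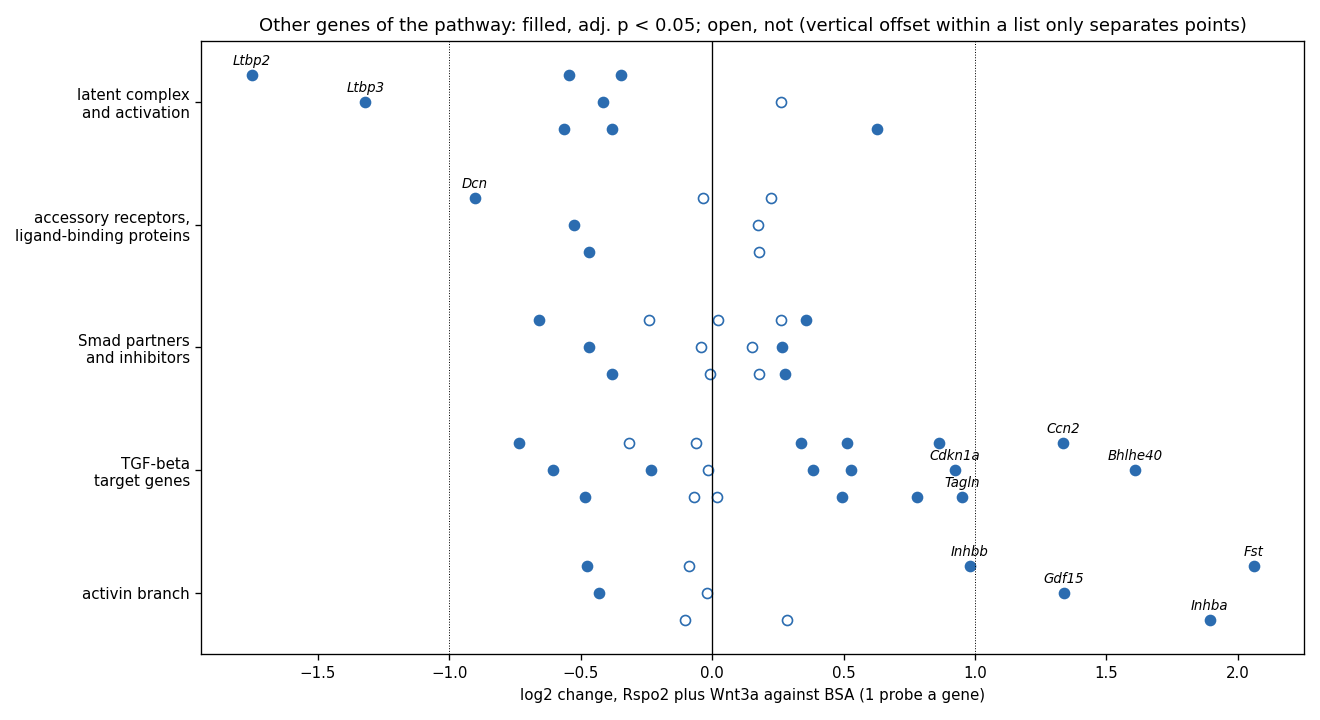
log2 change with both proteins against BSA of each tested gene of the 5 lists, 1 probe a gene; filled points passed an adjusted p of 0.05, open points did not, and dotted lines mark 2-fold. *Ltbp2* and *Ltbp3* lie past 2-fold lower, and *Bhlhe40*, *Ccn2*, *Inhba*, *Gdf15* and *Fst* beyond 2-fold higher; the fitted *Fst* value is no bound, since its BSA arrays were not above background.

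Genes whose pattern over the 12 arrays was most like that of a called member were sought by Pearson correlation among 13352 genes well above background on every array; the arrays share groups and slides, so r is a description. Nearest to *Tgfb2* were *Nudt4*, *Nrp1* and *Rab30* (r = 0.97, 0.97 and 0.96), to the variant 1 probe of *Tgfbr2* *E2f8*, *Pcdh21* and *Pctk2* (r = 0.99, 0.98 and 0.98), and to *Tgfbr3* *Bdkrb1*, *Lepre1* and *Sfi1* (r = 0.97 for each). *Nrp1*, the co-receptor neuropilin-1, changed by 0.71 with both proteins (adjusted p = 3.99e-05) and *Pcdh21*, a protocadherin, by 1.53 (adjusted p = 3.71e-05). For *Smad3* the search ran on the brightest probe, which was not the called one, and gave *Atp10a*, *Gm632* and *Rrbp1* (r = 0.98, 0.98 and 0.96), none of which passed with both proteins.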

How the data were processed

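RNA of C57MG cells in 4 groups of 3 samples was measured on 12 arrays of 1 color. The intensity values were made by the authors with Agilent Feature Extraction 9.5.3.1, per the submitters' processing notes, and were deposited without scaling between arrays; the authors also deposited ratio values, each signal divided by the 75th percentile of its array, used here as an alternative. The genome build of the probe positions is not given in the sources used here. Spots marked uneven or as outliers were left out (0 of 300 member spot values), the spots of a probe were averaged, and log2 values were centred on each array's 75th percentile. Of 41174 probes, 22750 were tested in limma 3.58.1 (R 4.3.3; 4 group means, 12 arrays, two-sided tests, Benjamini-Hochberg adjustment over all 22750), with code tested on simulated data. The number of arrays limits the precision. Figures were drawn with matplotlib 3.10.9 in Python 3.11.15.

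The members and lists were chosen with earlier results of these data known. The text names all probes of the 10 genes and the 3 genes most like each called member. From each other list it names up to 4 genes (by the brightest probe, largest change with both proteins, adjusted p below 0.05). *Ltbp4* is named as well, beside the other latent TGF-beta binding proteins. Member symbols are those of the files, and list genes were matched by current or older symbols; the accessions of 13 of the 16 probes are in RefSeq under the same symbol. Replicate numbers recur across groups, but samples sharing a number did not deviate together (median r = 0.01, -0.41 to 0.27, 18 pairs), so they were not paired. Background correction, scaling, filters, flags, test, slide, replicate number and left-out arrays were varied.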

Additional observations from a re-analysis of the deposited data

Results flagged for a closer look

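Among the 14 tested probes, the interaction term of limma was called for 2, where 1.93% of all tested probes were called. For *Tgfb2* the interaction was 1.25 (log2, adjusted p = 0.0433): Rspo2 changed the signal by 0.17 without Wnt3a and by 1.42 with it. For the *Smad3* probe designed on an expressed sequence tag it was 1.34 (adjusted p = 0.0435), with changes of -0.84 and 0.50, and its 4 lowest arrays were those of slide 2. With slide as a term the interactions were 1.57 (adjusted p = 0.162) and 0.37 (adjusted p = 0.464). They were lost in 17 and 16 of 25 alternatives.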

How the results depend on the processing

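The 4 probes called with both proteins against BSA, the 1 called with Wnt3a, the 0 called with Rspo2, the 1 called with both against Wnt3a and the 2 of the interaction were recounted under 28 alternatives. Normexp background correction gave 1 with both, 0 with Wnt3a, 0 with both against Wnt3a and 0 in the interaction. Slide as a term gave 2 with both, 0 with Wnt3a, 2 with both against Wnt3a and 0 in the interaction. The methods' t-test gave, after Benjamini-Hochberg adjustment, 0 with Wnt3a and 0 with both against Wnt3a, and without adjustment 2 with both against Wnt3a. Centring on the median of each array gave 2 with Wnt3a and 1 in the interaction, and turned the change of *Tgfb1* with Wnt3a from -0.29 to 0.038. The interaction count was 0 with quantile normalization, with no filter on dim probes, with a looser detection flag and with slide as a random block. Without the requirement of 2-fold, 1 probe passed with Rspo2, 6 with Wnt3a and 2 with both against Wnt3a. When each array was left out in turn the counts were 0 to 1 with Rspo2, 0 to 2 with Wnt3a, 3 to 4 with both, 1 to 2 with both against Wnt3a and 0 to 2 in the interaction. With the replicate number as a replicate block the interaction count was 0 (*Tgfb2* 1.25, adjusted p = 0.0662) and the other 4 counts were as before. Of the 17 changes of member probes with an adjusted p below 0.05, 15 were lost with normexp, 13 with slide as a term, 9 with no filter on dim probes, 8 each with the looser flag, slide as a random block and the replicate block, 7 with median centring (1 more reversed), 6 with quantile normalization, and 0 with all spots kept. Of the 15 that the methods' t-test covers, 12 were lost with adjusted p and 5 without adjustment. The cause of these changes was not tested. The methods' t-test and the fit on the compared groups alone give no interaction. Dim probes limit what can be measured: *Tgfb2* had 79.2 to 573 intensity units and *Tgfbr3* 77.4 to 445.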
